A study of Homo sapiens with 8 samples.

Results

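The 10 ganglioside synthesis enzymes described here were taken by gene symbol from RNA sequencing of 8 human cancer cell lines. They were 10 of the 52087 symbols in the deposited tables. The symbols covered 14 of 58202 Ensembl gene identifiers, because B3GALT4 had 5 identifiers, 4 of them listed at 0 in all lines, and the identifier with the highest mean was used for each symbol. The members were proposed with their values in these lines known, so their levels, order, differences between tissues and correlations are given as a description, with no test.

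The study profiled ERBB4-expressing lines (ERBB4 is a receptor tyrosine kinase), and its design divided them by response to the kinase inhibitor ibrutinib. No label assigns a response to a line, so lines are described one by one and by tissue. KLE (endometrial adenocarcinoma) and HEC59 (endometrial carcinoma) were the endometrial lines and COV318 (ovarian epithelial-serous carcinoma) the ovarian line. The lung lines were H522 (non-small cell lung cancer), H661 (large cell lung cancer) and H146 (small cell lung cancer), H716 was a colorectal adenocarcinoma line from the cecum, and 1321N1 was a glial line from a brain astrocytoma. Each line gave 1 library after 48 hours in plates, with no treatment named and no parental or normal control. A line stands for 1 tumour, and a tissue's lines are different tumours.

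Gangliosides are sialic acid-bearing glycosphingolipids of the outer leaflet of the plasma membrane, abundant in nervous tissue and displayed by several tumour types. They are built in the Golgi by sugars added one at a time to ceramide. The series branch at the ganglioside GM3: sialylation of GM3 gives GD3, and addition of N-acetylgalactosamine gives GM2 from GM3 or GD2 from GD3. GD2 is a target of antibody therapy in neuroblastoma.

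Levels are FPKM as deposited, that is, fragments scaled by transcript length and by mapped fragments, and a gene is called detected at an FPKM of 1 or more. Each line had 12205 to 13300 detected genes. FPKM hold no read totals, so counting errors are unknown; low values moved in read steps that put relative depth between 1 in KLE and 2.67 in 1321N1. The steps were also used to put the lines into sets of 4. One set held KLE, H522, H716 and H661, and the other COV318, HEC59, 1321N1 and H146. The share of genes at a pair's commonest ratio was 9.49 percentage points higher within sets than between them. The sets were drawn from these same values, so that gap is no test of them. They are also the first 4 and the last 4 lines in sample order, and whether the lines form natural groups was not tested. Correlations of UGCG with ST3GAL5, B4GALNT1 with B4GALT6 and ST8SIA5 with ST3GAL2 are given within both sets. Markers of the labelled tissues were uneven. Among 4 Mullerian markers, KLE and HEC59 had all 4 detected and COV318 3. Of 5 neuroendocrine markers, H146 had all 5 and H716 4, and of 4 intestinal markers H716 had 3. CDH17, an intestinal cadherin, was at 137 in H716, while CDX2 was at 1.31, VIL1 at 1.07 (8.74 in H146) and CDX1 listed at 0. Of 5 glial markers 1321N1 had GFAP alone detected, at 3.10, with S100B, OLIG1 and AQP4 listed at 0. H146 had 2 detected, GFAP at 1.57 and AQP4 at 4.46, and the summed level of the 5 was 3.11 in 1321N1 and 6.03 in H146, so these markers do not set 1321N1 apart. Of 4 lung markers, NKX2-1, a lung lineage factor, was detected in H661 alone, and NAPSA, SFTPB and SFTPC were detected in no line. Further markers were detected outside their tissue. PAX8, a Mullerian marker, was at 5.84 in 1321N1, above GFAP there, and at 1.68 in H522. SYP, a neuroendocrine marker, was at 2.37 in H522, and the glial marker AQP4 was also detected in KLE. Of 3 endothelial markers, CDH5 alone was detected, at 2.53 in HEC59. None of 4 immune markers was detected in any line, and PTPRC was highest in H146 at 0.967. In bulk RNA, fewer cells with a transcript and less transcript per cell cannot be told apart.

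The promoters of UGCG, ST3GAL5 and ST8SIA1 are shown first, because UGCG and ST3GAL5 were the pair of members whose levels varied most alike across lines, while ST8SIA1 was near 0 in most lines. The sequences are from RefSeq on GRCh38.p14, each the 250 bases before an annotated transcript start (the first listed of several for ST3GAL5), and 5 of the 10 members matched the promoter table. They lie at chr9:111896564-111896813 (plus strand), chr2:85888991-85889240 (minus strand) and chr12:22334708-22334957 (minus strand). Capitals mark the GC box, GGGCGG or its reverse complement CCGCCC, a motif bound by SP1-family factors.
UGCG: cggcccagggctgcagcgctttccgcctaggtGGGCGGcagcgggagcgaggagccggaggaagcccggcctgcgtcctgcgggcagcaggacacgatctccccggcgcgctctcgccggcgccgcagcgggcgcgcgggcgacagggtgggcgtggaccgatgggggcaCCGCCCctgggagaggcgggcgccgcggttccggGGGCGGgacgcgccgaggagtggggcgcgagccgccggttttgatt
ST3GAL5: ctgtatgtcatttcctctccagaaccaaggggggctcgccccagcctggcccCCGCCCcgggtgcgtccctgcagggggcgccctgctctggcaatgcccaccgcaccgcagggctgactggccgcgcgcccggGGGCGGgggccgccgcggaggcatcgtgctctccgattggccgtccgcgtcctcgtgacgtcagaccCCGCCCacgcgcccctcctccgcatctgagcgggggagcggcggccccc
ST8SIA1: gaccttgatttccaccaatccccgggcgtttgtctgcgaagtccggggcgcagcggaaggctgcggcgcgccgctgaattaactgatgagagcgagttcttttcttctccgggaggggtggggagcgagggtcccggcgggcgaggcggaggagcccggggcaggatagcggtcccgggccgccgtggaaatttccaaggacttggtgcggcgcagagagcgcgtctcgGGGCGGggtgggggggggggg
The UGCG and ST3GAL5 windows each held 3 GC boxes and the ST8SIA1 window 1. Over 27305 promoters of the same length, 1 per gene, 42.3% held at least 1 and 14.0% at least 3. The windows were 78.4% (UGCG), 76.0% (ST3GAL5) and 69.2% (ST8SIA1) G and C, against a median of 58.0% over all promoters. A match is only a description of these letters.

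Across the 8 lines, 53 of the 80 pairs of a member and a line were detected. UGCG, B4GALT5, ST3GAL5 and NEU3 were detected in all 8 lines, and B3GALT4 in none. The other 5 members were detected in some lines only, and HEC59 had the fewest members detected, 5, and 1321N1 the most, 8. With 1 library per line, no spread between repeats of a line is known, so lines next to each other in an order are not separated by these data.

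**Figure D1:**
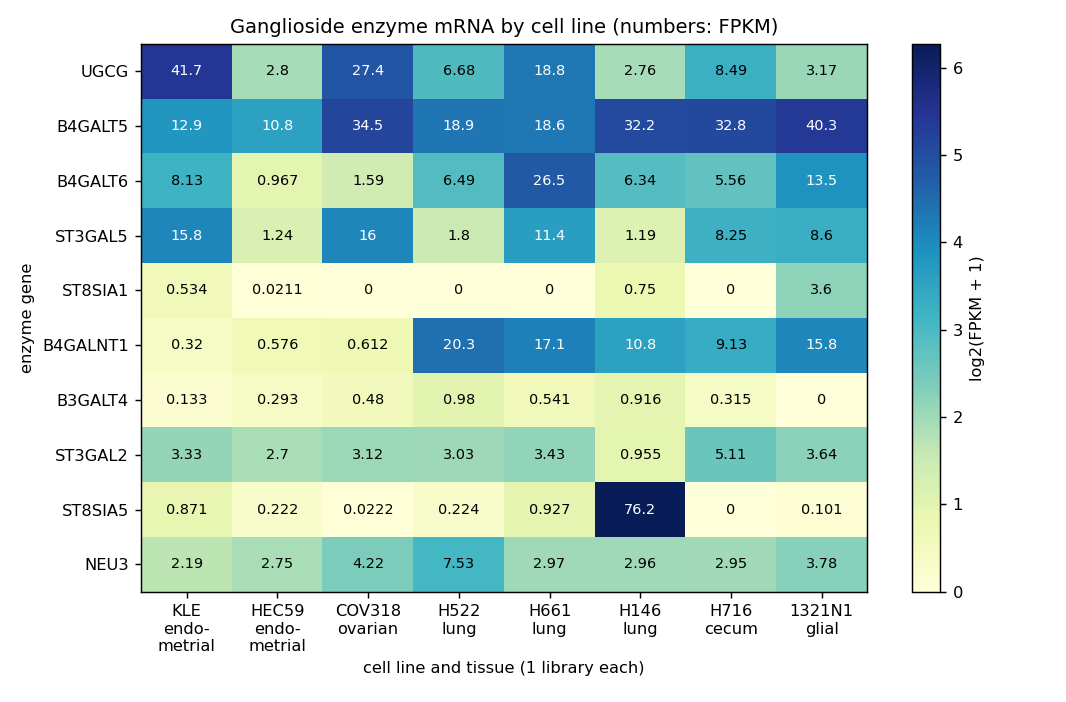
FPKM of the 10 enzymes (rows, from the first step of synthesis downwards, with the sialidase NEU3 last) in 8 lines (columns, 1 library each, grouped by tissue); colour is log2(FPKM + 1) and numbers are FPKM. B4GALNT1 is below 1 in KLE, HEC59 and COV318 and 9.13 to 20.3 in the other lines, and ST8SIA5 stands at 76.2 in H146 alone.

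UGCG, which commits ceramide to glycosphingolipids by making glucosylceramide, was at an FPKM of 41.7 in KLE, 27.4 in COV318, 18.8 in H661, 8.49 in H716, 6.68 in H522, 3.17 in 1321N1, 2.80 in HEC59 and 2.76 in H146. The highest line was 15.1 times the lowest. Both endometrial lines lay at opposite ends, KLE highest and HEC59 next to lowest. The range on the log2(FPKM + 1) scale was 3.51, and 16.3% of the 15650 filtered genes (those detected in 2 or more lines) had a wider one.

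B4GALT5 and B4GALT6 encode the isoenzymes that add galactose to form lactosylceramide. B4GALT5 was at 40.3 in 1321N1, 34.5 in COV318, 32.8 in H716, 32.2 in H146, 18.9 in H522, 18.6 in H661, 12.9 in KLE and 10.8 in HEC59. It was the steadier isoenzyme, with a range on the log2 scale of 1.81 (55.8% of genes were wider). B4GALT6 was at 26.5 in H661, 13.5 in 1321N1, 8.13 in KLE, 6.49 in H522, 6.34 in H146, 5.56 in H716, 1.59 in COV318 and 0.967 in HEC59, a 27.4-fold spread. Of their summed FPKM, B4GALT5 made up 95.6% in COV318, 91.8% in HEC59, 85.5% in H716, 83.5% in H146, 75.0% in 1321N1, 74.5% in H522, 61.4% in KLE and 41.3% in H661. H661 was therefore the one line of the 8 with more B4GALT6 than B4GALT5 transcript. The sum ranged from 11.7 in HEC59 to 53.8 in 1321N1, a 4.59-fold spread. Exons of B4GALT6 overlap those of an antisense gene, AC017100.1, over 107 bases in GENCODE v29, and that gene was at 4.38 in H661 and at most 2.23 elsewhere. The sources used here do not give whether counting used strand, so the part of the overlap was not tested.

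ST3GAL5, the GM3 synthase from which most gangliosides descend, was at 16.0 in COV318, 15.8 in KLE, 11.4 in H661, 8.60 in 1321N1, 8.25 in H716, 1.80 in H522, 1.24 in HEC59 and 1.19 in H146. The lines fell into 5 at 8.25 or more and 3 at 1.80 or less, and each of those levels contained lung and endometrial lines. In both sets of lines with like read steps, low and high ST3GAL5 occurred (H522 low in one; HEC59 and H146 low in the other).

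UGCG and ST3GAL5 varied alike across the lines. Over the 8 lines Pearson's r of log2(FPKM + 1) was 0.80 and Spearman's rho 0.90. It was the highest r of the 45 pairs of members, and the pair is described for that reason, with no test. With HEC59 and H146 left out, whose ST3GAL5 levels were farthest from the median, r was 0.64 over 6 lines, and it was 0.76 to 0.94 when single lines were left out. Inside each set of 4 lines with like read steps it was 0.83 and 0.78. The line farthest from the common order was 1321N1, where ST3GAL5 exceeded UGCG, at 8.60 against 3.17. UGCG was higher in the other 7 lines, at 1.03 times ST3GAL5 in H716 and 3.71 times in H522. The 8 points come from different tumours and share the scaling of each library. The values with lines left out, and those within sets, reuse these points.

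**Figure D2:**
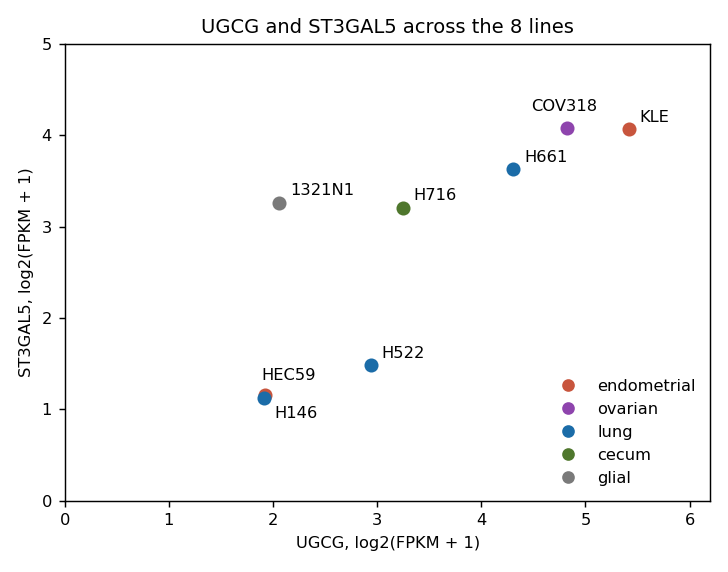
UGCG (x axis) against ST3GAL5 (y axis), both log2(FPKM + 1); each point is 1 line, coloured by tissue. KLE, COV318 and H661 lie at the upper right, H146 and HEC59 at the lower left, and 1321N1 above the other lines with as little UGCG.

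B4GALNT1 (ENSG00000135454), the N-acetylgalactosaminyltransferase that makes GM2 and GD2, was present at clearly separated levels. It was at 0.320 in KLE, 0.576 in HEC59 and 0.612 in COV318, against 20.3 in H522, 17.1 in H661, 15.8 in 1321N1, 10.8 in H146 and 9.13 in H716. The low lines were the endometrial and ovarian lines, and the lowest of the other 5 lines was 14.9 times the highest of these 3. On the log2 scale the mean was 0.58 ± 0.16 (SD, n = 3) in the endometrial and ovarian lines and 3.91 ± 0.45 (SD, n = 5) in the other lines. Among the 10 members, B4GALNT1 alone did not overlap between those groups of lines. Of the 15650 filtered genes, 2.82% were lower in the endometrial and ovarian lines without overlap and 2.52% higher, and nothing is read from the count of 1 because the grouping followed from these values. The same division held in each set of lines with like read steps: KLE at 0.320 against 9.13 to 20.3, and HEC59 and COV318 at 0.576 and 0.612 against 15.8 and 10.8. The summed FPKM of the 4 Mullerian markers was 99.0 to 252 in the endometrial and ovarian lines and 0.00081 to 5.91 in the other lines, and its part in the difference was not tested. SLC26A10, whose exons overlap those of B4GALNT1 on the opposite strand, was at most 0.486 in any line.

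Because B4GALNT1 and ST3GAL5 act one after the other, their transcripts were also set side by side within each line. The ratio of B4GALNT1 to ST3GAL5 FPKM was 0.0202 in KLE, 0.0384 in COV318 and 0.465 in HEC59, against 11.3 in H522, 9.13 in H146, 1.84 in 1321N1, 1.51 in H661 and 1.11 in H716. By FPKM, transcripts of the GM3 synthase thus exceeded those of the GM2/GD2 synthase in the endometrial and ovarian lines alone among the 8. B4GALNT1 was itself below 1 in those lines, so the ratio is not independent of its levels, and H716 lay near 1. In HEC59 both transcripts were low, ST3GAL5 at 1.24 and B4GALNT1 at 0.576. ST3GAL5 was at 15.8 in KLE and 16.0 in COV318. H522 and H146 had the highest ratios, and ST3GAL5 was at 1.80 and 1.19 there. The ratio within a line does not depend on how libraries are scaled. It does depend on the transcript lengths used for FPKM, which the sources used here do not give.

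**Figure D3:**
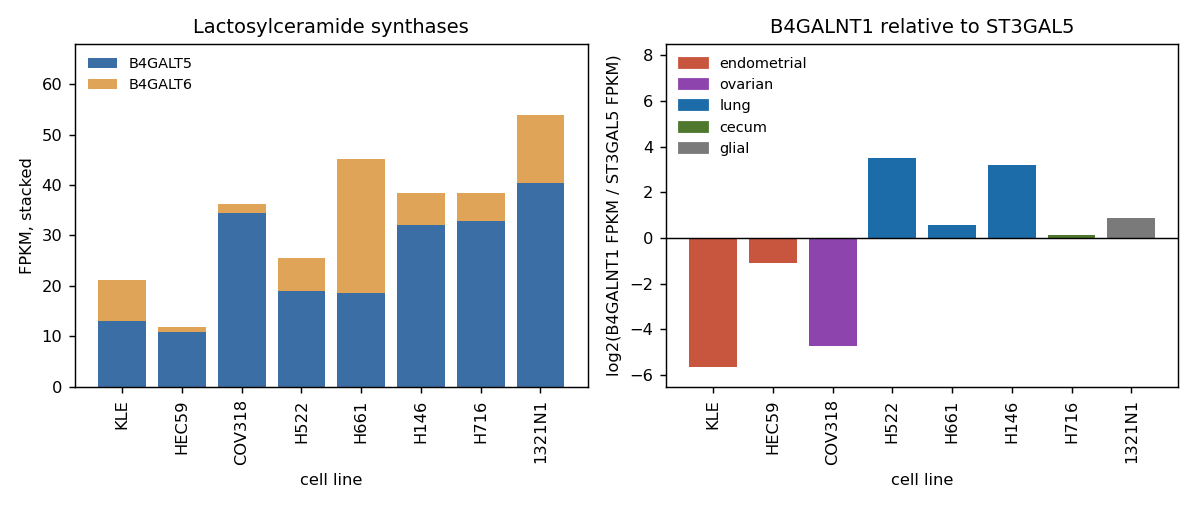
Left, FPKM of B4GALT5 and B4GALT6 stacked for each line; right, log2 of the ratio of B4GALNT1 to ST3GAL5 FPKM, with bars coloured by tissue (1 library per line). B4GALT6 exceeds B4GALT5 in H661, and the ratio is below 0 in KLE, HEC59 and COV318 and above 0 in the other lines.

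ST8SIA1 (ENSG00000111728), the GD3 synthase that opens the b-series, was detected in 1321N1 alone. It was at 3.60 in 1321N1, 0.750 in H146, 0.534 in KLE and 0.0211 in HEC59, and was listed at 0 in H522, H661, H716 and COV318. 1321N1 was thus the only line of the 8 in which ST8SIA1 and B4GALNT1, the enzymes needed in succession for GD2, were both detected; ST8SIA1 was 0.228 times B4GALNT1 there. At a threshold of 0.5, H146 joined it, with ST8SIA1 at 0.750 and B4GALNT1 at 10.8. KLE had ST8SIA1 at 0.534 but B4GALNT1 at 0.320. Of the lines with like read steps, ST8SIA1 was above 0 in 1321N1, H146 and HEC59 of one set and in KLE of the other. At these levels an FPKM rests on few reads, and their number is unknown.

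The ST8SIA1 gene overlaps CMAS on the opposite strand in GENCODE v29, with no shared exon bases. CMAS, the enzyme that activates sialic acid to its CMP donor form, was at 86.4 in H146, 84.8 in KLE, 45.0 in H716, 25.2 in 1321N1, 21.3 in COV318, 16.5 in H522, 16.4 in H661 and 9.27 in HEC59. In the same order of lines, ST8SIA1 was at 0.750, 0.534, 0, 3.60, 0, 0, 0 and 0.0211. Whether reads of one gene entered the other's value was not tested.

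ST8SIA5 (ENSG00000101638), a sialyltransferase of the most heavily sialylated gangliosides, was at 76.2 in H146 and did not reach 1 elsewhere. It was at 0.927 in H661, 0.871 in KLE, 0.224 in H522, 0.222 in HEC59, 0.101 in 1321N1 and 0.0222 in COV318, and listed at 0 in H716. H146 was 82.2 times the next line. This made ST8SIA5 the highest single value of any member in any line. An overlapping transcript on the opposite strand, AC090241.2, which shares 432 exon bases with it in GENCODE v29, was at 19.7 in H146 and at most 0.107 elsewhere, and reads of the overlap could be counted for either gene. H716, which shares neuroendocrine markers with H146 (summed FPKM of 5 markers 82.9 in H716 and 340 in H146), had ST8SIA5 listed at 0.

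**Figure D4:**
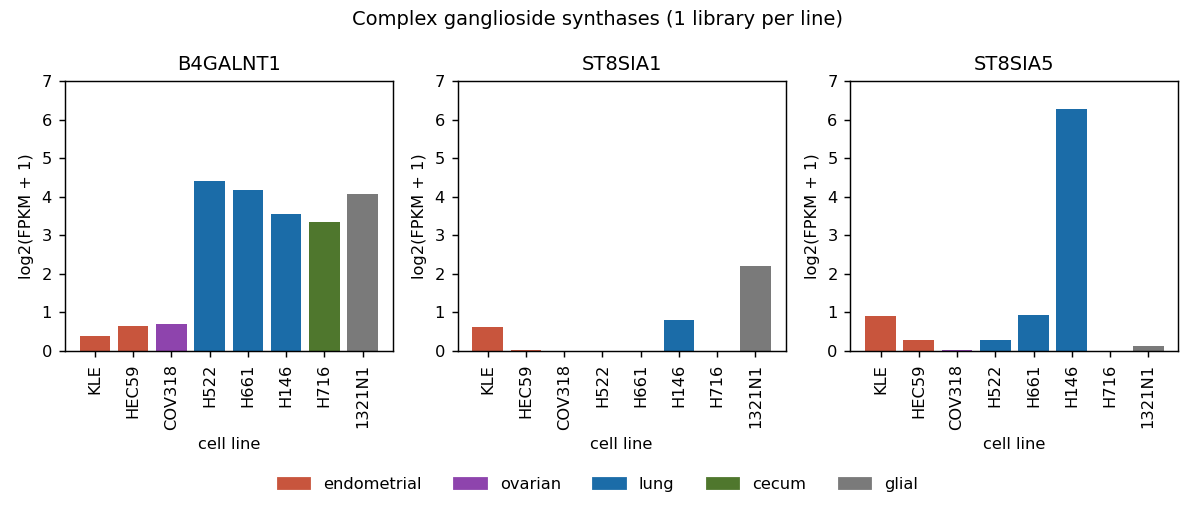
Bars give log2(FPKM + 1) of B4GALNT1, ST8SIA1 and ST8SIA5 in each line (1 library per line), coloured by tissue. B4GALNT1 is low in the endometrial and ovarian lines, ST8SIA1 is highest in 1321N1, and ST8SIA5 is at 6.27 in H146 and below 1 on this scale in the other lines.

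B3GALT4, which extends GM2 to GM1 and GD2 to GD1b, stayed below 1 in all lines. It was at 0.980 in H522, 0.916 in H146, 0.541 in H661, 0.480 in COV318, 0.315 in H716, 0.293 in HEC59 and 0.133 in KLE, and listed at 0 in 1321N1. The lung lines were the highest 3 and did not overlap the others, but all values were small. Its 4 further identifiers, listed at 0, share its symbol, and the sources used here do not give how the authors' counting divided reads among like copies. The value is therefore uncertain.

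ST3GAL2, which adds the terminal sialic acid of GD1a and GT1b, was at 5.11 in H716, 3.64 in 1321N1, 3.43 in H661, 3.33 in KLE, 3.12 in COV318, 3.03 in H522, 2.70 in HEC59 and 0.955 in H146. Leaving out H716 and H146, the other 6 lines lay between 2.70 and 3.64. AC012184.1, an antisense gene that shares 590 exon bases with ST3GAL2 in GENCODE v29, was likewise highest in H716, at 0.770, and lowest in H146, at 0.340. The part of this overlap was not tested. ST3GAL2 was lowest in the line with the highest ST8SIA5. Pearson's r between them was -0.90 over 8 lines and -0.25 without H146, so it rests on that line, and Spearman's rho was -0.52. Inside the sets of 4 lines r was -0.61 and -0.98, with H146 in the set at -0.98. NEU3, the plasma membrane sialidase that removes sialic acid from gangliosides, was at 7.53 in H522, 4.22 in COV318, 3.78 in 1321N1, 2.97 in H661, 2.96 in H146, 2.95 in H716, 2.75 in HEC59 and 2.19 in KLE. It was the member past the filter with the narrowest range, 1.42 on the log2 scale, and 75.4% of genes were wider.

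The members past the filter differed widely in how much they varied. The filter, detection in 2 or more lines, kept 7 of the 10 members, leaving out ST8SIA1, ST8SIA5 and B3GALT4. Among the 7, the share of filtered genes with a wider range was 11.7% for B4GALNT1, 13.3% for B4GALT6, 16.3% for UGCG, 23.3% for ST3GAL5, 55.8% for B4GALT5, 63.9% for ST3GAL2 and 75.4% for NEU3. Of the 45 pairs of members, 4 had r above 0.5 and 4 below -0.5. After UGCG with ST3GAL5, the next highest was B4GALNT1 with B4GALT6 (r = 0.68, rho = 0.52 over 8 lines). This r was 0.79 over 6 lines without HEC59 and KLE, and within the sets of 4 lines 0.24 and 0.97. Both genes were low in HEC59 and COV318, but KLE had B4GALT6 at 8.13 beside B4GALNT1 at 0.320.

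By tissue, the endometrial lines did not overlap the other 6 lines for 3 members, all lower. B4GALNT1 averaged 0.53 ± 0.18 (SD, n = 2) in the endometrial lines and 3.38 ± 1.38 (SD, n = 6) in the other lines on the log2 scale, a difference of -2.85. B4GALT5 averaged 3.68 ± 0.17 in the endometrial lines and 4.88 ± 0.46 in the other lines, a difference of -1.20. NEU3 averaged 1.79 ± 0.17 in the endometrial lines and 2.28 ± 0.43 in the other lines, a difference of -0.49, and its nearest lines were HEC59 at 2.75 and H716 at 2.95. Over all 15650 genes 4.53% were lower in the endometrial lines without overlap and 2.43% higher, and the median difference was -0.11. Scaling to a common upper quartile moved that median to -0.00408 and the 3 differences to -2.78, -1.07 and -0.39. COV318, at 0.612 for B4GALNT1, counts among the other lines here.

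In the lung lines, 1 member, B3GALT4, lay above the other 5 lines without overlap, where 2.07% of filtered genes did so, though B3GALT4 itself did not pass the filter. In the 3 lung lines B4GALNT1 averaged 4.05 ± 0.44 (SD), against 1.83 ± 1.73 (SD) over the other 5, and H716 at 9.13 and 1321N1 at 15.8 overlapped the lung lines at 10.8 to 20.3. ST8SIA5 averaged 2.50 ± 3.28 in the lung lines and 0.27 ± 0.37 in the other lines. Its difference of 2.23 was 0.35 without H146. B4GALT6 averaged 3.52 ± 1.09 in the lung lines and 2.42 ± 1.22 in the other lines, and ST3GAL5 2.08 ± 1.35 in the lung lines and 3.16 ± 1.19 in the other lines. The B4GALT6 difference of 1.10 was 0.47 without H661, and the ST3GAL5 difference of -1.08 was -0.60 without H146 and -1.85 without H661. ST8SIA1, ST3GAL2, B4GALT5, UGCG and NEU3 differed by -0.47 to 0.31. Of the 10 members, B4GALNT1 and B3GALT4 alone differed by more than the larger of the groups' SDs.

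Further genes of glycosphingolipid and sialic acid metabolism, 70 in 6 lists, were examined beside the members. The lists were chosen by function, with earlier results of these data known. By mistake UGGT1, a glycoprotein folding sensor, stands in the list of sugar supply and is counted there. Of the 70 genes 62 were detected in at least 1 line and 35 in all 8, and NEU2, a sialidase named after its values were seen, was listed at 0 in all lines. The filter left 59, which were tested in a fit across all 15650 genes. None passed in the lung lines against the other 5 or the endometrial lines against the other 6 (limma, Benjamini-Hochberg adjustment over all genes). Of all genes, 0.0256% passed in the lung comparison and 0.00639% in the endometrial one. The latter was 1 gene, AC002066.2, at a mean log2(FPKM + 1) of 19.8 in the endometrial lines and 0 in the others. This extreme value was not examined further. At an unadjusted p under 0.05 there were 6 of the 59 in the lung comparison (10.2%, against 5.94% of all genes) and 2 in the endometrial comparison (3.39%, against 4.82%). The median log2 difference of the 59 was -0.19 in the lung comparison (all genes -0.02) and -0.08 in the endometrial comparison (all genes -0.11). No pathway gene lay above the other lines without overlap in the lung lines, and 5 of the 59 lay below (SPTLC3, ST3GAL1, ST3GAL6, GLB1 and PSAP, named after their values were seen), where 2.07% of all genes lay above and 2.23% below. In the endometrial lines 3 lay above (COL4A3BP, ASAH1 and PSAP), where 2.43% of all genes did so, and 1 below (ST3GAL4, also named after its values were seen), where 4.53% did.

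Of 17 genes of ceramide supply, 11 were detected in all lines and 15 were tested. CERS2, a ceramide synthase of very long chains, had the highest mean, at 44.1 in HEC59 to 139 in H522. COL4A3BP, which encodes the ceramide transfer protein CERT, was at 60.2 in HEC59 and 27.2 in KLE, against 5.81 to 19.5 in the other lines. The endometrial lines did not overlap the others, yet the difference did not pass (log2 difference 1.85, SE 0.49, limma adjusted p = 0.620). CERS4 was widest in range, listed at 0 in H716 and at 8.88 in HEC59, and DEGS2 ranged from 0 in 1321N1 to 7.28 in H716. UGCG, which acts on ceramide, was at 2.80 in HEC59 and 41.7 in KLE, the lines with the most COL4A3BP.

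Of 8 genes of competing glycosphingolipid branches, none was detected in all lines and 5 were tested. H146 had the highest level of all 3 genes with the widest ranges. B3GNT5, which starts lacto-series chains from lactosylceramide, was at 52.3 in H146, 32.7 in H522 and 19.3 in 1321N1, and at most 5.05 in the other lines. B3GALNT1, the globoside synthase, was at 14.4 in H146, 5.92 in KLE, 4.78 in HEC59 and 2.67 in H661, and below 1 elsewhere. UGT8, which makes galactosylceramide, was at 16.6 in H146 and at most 8.29 in the other lines. Of the 3 lines with the least ST3GAL5, H522 and H146 had high B3GNT5 and HEC59 had 5.05. 1321N1, with B3GNT5 at 19.3, had ST3GAL5 at 8.60.

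Of the other ganglioside sialyltransferases, ST8SIA3 and ST6GALNAC5 were highest in H146, ST6GALNAC4 in H716 at 11.9 and ST6GALNAC3 in COV318. All 5 were detected in at least 1 line, 1 of them, ST6GALNAC4, in all 8, and 4 were tested. ST8SIA3, an alpha2,8-sialyltransferase, was at 10.5 in H146 and at most 0.491 elsewhere, and ST6GALNAC5, the GD1alpha synthase of brain, was at 13.0 in H146, 7.19 in KLE and at most 0.839 elsewhere. ST6GALNAC3 was detected in COV318 at 5.52, 1321N1 at 4.65 and KLE at 2.17. Median differences over the 4 tested genes were -0.20 in the lung comparison and -0.45 in the endometrial comparison.

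Of 11 sialyltransferases acting mainly on glycoproteins or in polysialic acid, 9 were detected in at least 1 line and 9 tested. ST6GALNAC2 had the highest mean, from 9.15 in H716 to 50.3 in H522. ST8SIA4, a polysialyltransferase, was at 15.6 in H716 and 5.54 in 1321N1 and at most 0.685 in the other lines. ST6GALNAC1, the sialyl-Tn synthase, was at 13.4 in KLE and 5.20 in COV318 and below 1 elsewhere, and ST6GAL1 ranged from 0.495 in H716 to 16.8 in KLE. ST3GAL1 and ST3GAL6 were named after their values were seen. ST3GAL1 was at 0.0497 to 0.290 in the lung lines, against 0.539 to 2.74 in the other lines, without overlap, and did not pass (log2 difference -1.19, SE 0.38, limma adjusted p = 0.670). ST3GAL6 likewise did not overlap, at 0.0330 to 0.112 in the lung lines against 0.299 to 9.13 in the other lines (log2 difference -1.82, SE 0.70, limma adjusted p = 0.794).

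All 12 genes of sialic acid and UDP-sugar supply were detected in some line, 11 of them in all 8, and all 12 were tested, counting UGGT1 each time. UGDH, which oxidises UDP-glucose, reached 440 in H716 and was lowest in H146 at 15.6, and UAP1, which makes UDP-N-acetylglucosamine, ranged from 11.4 in H146 to 129 in 1321N1. Of 17 genes of breakdown, 11 were detected in all lines and 14 tested. GM2A, the activator protein that presents GM2 to its hexosaminidase, was at 0.863 in H146 and 8.94 to 29.2 in the other lines. CTSA, the protective protein of lysosomal sialidase, was likewise lowest in H146, at 17.5 against 55.4 to 167, and ASAH1, acid ceramidase, at 2.90 against 3.98 to 40.4. GALC, which cleaves galactosylceramide, was at 0.0693 in 1321N1 and 3.45 to 25.1 elsewhere.

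**Figure D5:**
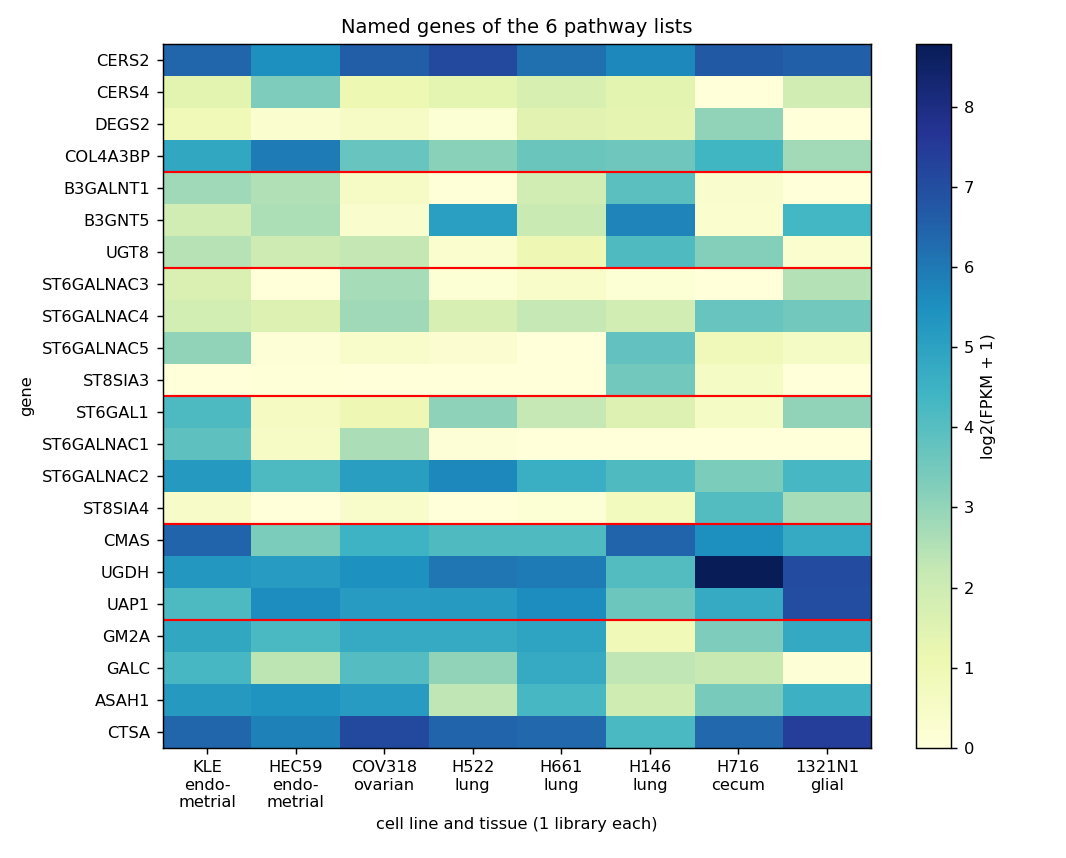
log2(FPKM + 1) of the genes named by rule in the 6 pathway lists (rows, lists separated by lines, in the order ceramide supply, competing branches, other ganglioside sialyltransferases, glycoprotein sialyltransferases, sugar supply and breakdown) in 8 lines (1 library each). B3GNT5, UGT8, ST6GALNAC5 and ST8SIA3 are highest in H146, where GM2A and CTSA are lowest.

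For 4 members the genes whose levels varied most alike were sought among 12044 genes past the filter with an FPKM of 5 or more in some line, by Pearson's r of log2(FPKM + 1) over 8 lines. For B4GALNT1 these were PSMC3, a proteasome ATPase subunit (r = 0.99), TMEM246, an N-acetylgalactosaminyltransferase of membrane anchors (0.96), WDR76 (0.94), AC011933.1 (0.94) and RBM14 (0.94). TMEM246 was at 0.0120 in KLE, 0.0567 in HEC59 and 0.462 in COV318, against 7.22 to 12.2 in the other lines. PSMC3 followed over a far smaller range, at 27.4 in both KLE and HEC59 and little more in COV318, against 49.6 to 68.4 in the other 5 lines. Without H522, the highest line, r was 0.94 to 0.99 over 7 lines for the 5 genes.

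For ST8SIA1 the 5 genes were PTN, a heparin-binding growth factor, EVA1C, ITGBL1, SERTAD4-AS1 and AC107613.1 (r = 0.97 to 0.98), all highest in 1321N1. Without 1321N1, r was 0.85 to 0.95 over 7 lines in which ST8SIA1 stayed at or below 0.750. For ST8SIA5 they were CHL1, a neural cell adhesion molecule, CLSTN2, RP11-13L2.4, FREM2 and RP4-755D9.1 (r = 0.984 to 0.997), all highest in H146, with CHL1 at 43.6 there and at most 1.06 elsewhere. Without H146, r was 0.67 to 0.95. For B4GALT6 they were SMS, which encodes spermine synthase, ARMC1, PTPN11, TRERF1 and ANKRD44 (r = 0.90 to 0.96), and SMS was at 443 in H661 and 21.6 in HEC59. These genes were the highest of 12044 over 8 points, and no test is attached to them.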

How the data were processed

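The authors deposited 1 table of FPKM values per line, per the file headers, with Ensembl identifiers and gene symbols. The tools named in the submitters' processing notes were CASAVA 1.4, TopHat2 2.0.8 and SAMtools 1.0, with the genome build GRCh37; the sources used here do not give the program that estimated FPKM, its annotation or its strand setting. FPKM hold no counts, so precision cannot be stated. Relative depth was read from pairs of lines as the ratio most often found among values under 0.1 (28 pairs, within 0.03 on the log2 scale), which 6.55% to 24.4% of 828 to 1481 genes per pair shared. Members and lists were chosen with earlier results of these data known.

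The scale was log2(FPKM + 1), on which differences of low genes come out too small. The 15650 genes detected (FPKM of at least 1) in 2 or more lines were fitted in R 4.3.3 with limma 3.58.1 (trended eBayes, two-sided, Benjamini-Hochberg threshold 0.05), lung against the other lines and endometrial against the other lines. Lines within a tissue are separate tumours, and p-values rest on the spread between lines alone. The fit was tested on simulated data. Named genes of a list were the 3 with the widest range and the 1 with the highest mean, plus any that passed; others are marked in the text as named after their values were seen. GENCODE 29 (GRCh38) was used for overlapping genes only. Alternatives were pseudocounts of 0.1 and 5, no filter, upper-quartile scaling, no trend, a term for the read-step sets, and leaving out each line. Descriptive values were computed with Python 3.11.15 and SciPy 1.17.1.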

Additional observations from a re-analysis of the deposited data

Results flagged for a closer look

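In 30 groups of members' values (10 members over all 8 lines, over the 5 lines that are not lung and over the 6 that are not endometrial), a line stood apart from its neighbours by Dixon's criterion in 9. Chance flags about 1 group in 20 where values are normally distributed, but the groups share lines and the members were chosen with their values known. ST8SIA1 was listed at 0 in 4 lines and ST8SIA5 reached 1 in H146 alone, so 1 expressing line readily stands apart. No excess is read from the count of 9. The 9 are 5 pairs of a gene and a line counted up to 3 times, and are given as a description. The value is the gap to the nearest line over the range of log2(FPKM + 1). ST8SIA5 in H146 stood at 0.849 over all lines and 0.849 over the lines that are not endometrial. ST8SIA1 in 1321N1 stood at 0.633 over all lines, 0.719 over the lines that are not lung and 0.633 over those that are not endometrial. ST3GAL2 in H146, on the low side, stood at 0.561 over all lines and 0.635 over the lines that are not endometrial. B4GALNT1 in COV318, on the low side, stood at 0.712 over the lines that are not endometrial. NEU3 in H522 stood at 0.636 over the same lines.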

How the results depend on the processing

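No pathway gene passed under any alternative run. The number of genes past the threshold over the whole table was 4 in the lung comparison, and 11 with a pseudocount of 0.1, 2 with a pseudocount of 5, 1 with no filter and 2 with the read-step set as a term. In the endometrial comparison it was 1 (AC002066.2), and 4 with a pseudocount of 5 and 20 with no filter. Leaving out single lines gave 1 (without COV318) to 16 (without H146) in the lung comparison, with 13 without H716, 8 without H661 and 2 without 1321N1 or HEC59, and 1 to 29 (without COV318) in the endometrial comparison, with 22 without HEC59 and 5 without KLE or H146. The lone endometrial line is then assumed to vary like the others. Detected pairs of a member and a line numbered 53, and 32 at an FPKM of 5. ST8SIA1 and B4GALNT1 were both detected in 1 line, in 2 at an FPKM of 0.5 and in 0 at 5. Of 20 member differences between tissues, 10 kept their sign under all alternatives run, B4GALNT1 in both comparisons among them. Of their 220 alternative values 3, all of B3GALT4 with other pseudocounts, moved by more than the larger group SD. A line that stands apart widens that SD, as H146 does for ST8SIA5, so the other 217 are no sign of stability. The cause of these moves was not tested. No paired analysis was possible because replicate numbers follow accession order and pair nothing. Depth is unknown, which limits B3GALT4, ST8SIA1 and the low values of ST8SIA5.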

Other observations

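GNE, the enzyme that starts sialic acid synthesis, and NANS were named after their values were seen. GNE was at an FPKM of 0.173 in KLE and 0.227 in H716, and 4.80 to 7.76 in the other 6 lines. NANS, the sialic acid synthase downstream of it, was at 9.92 in KLE and 13.5 in H716, and 3.39 to 28.9 in the other lines. Both lines with low GNE had ST3GAL5 at 8.25 or more, as did H661, 1321N1 and COV318, with GNE at 5.64 to 6.94. Neither comparison by tissue separates KLE and H716 from the other lines, so no test applies. Both lines belong to the same set of lines with like read steps, where H522 and H661 had GNE at 7.76 and 6.35.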
